A study of Mus musculus with 5 samples.

Results

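In mouse liver nuclei, 10 genes listed under sterol efflux and transfer were followed: Abca1, Abcg1, Abcg5, Abcg8, Scarb1, Soat1, Soat2, Lpcat3, Gramd1b and Osbpl3. They are 10 of the 32285 genes in the count matrices and were taken by symbol, and all 10 were found. UMIs (reads collapsed to single captured molecules) were summed per library over nuclei picked by measured counts. Hepatocyte nuclei had at least 2000 UMIs and at least 1 UMI of Hnf4a, a transcription factor of hepatocytes. Macrophage-gated nuclei had no Hnf4a UMI and at least 1 UMI of Clec4f, Cd5l, Gpnmb or Ms4a7. Every nucleus had at least 300 genes. The gate genes are not results here, and the levels of the 10 genes played no part in picking nuclei.

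The livers came from male wild-type C57BL6/J mice. There were 3 libraries from mice on regular chow and 2 from mice on a MASH diet, in which fructose gave 20 kcal%, fat gave 40 kcal% and cholesterol was added at 2%, and which models metabolic dysfunction-associated steatohepatitis. Feeding began at 10 to 12 weeks of age and lasted 5 months. Nuclei from snap-frozen tissue were sorted and made into 3-prime droplet libraries. Whether a library holds 1 mouse or a pool is not given in the sources used here, so p-values measure the spread between libraries only.

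Excess cellular cholesterol is turned into oxysterols that activate the liver X receptors (LXR), which pair with RXR and raise transcription of efflux pumps. ABCA1 and ABCG1 load cholesterol on apolipoprotein A-I and HDL, ABCG5 and ABCG8 join into a pump that sends sterols into bile, and SCARB1 takes cholesteryl ester up from HDL. SOAT1 and SOAT2 esterify cholesterol for storage, LPCAT3 remodels phospholipids and is an LXR target, and GRAMD1B and OSBPL3 carry lipids at contacts between membranes.

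All 10 genes are protein coding, and their positions are given on GRCm38 from GENCODE M21. Abcg5 (ENSMUSG00000040505, chromosome 17, 84658234 to 84683011, minus strand) and Abcg8 (ENSMUSG00000024254, chromosome 17, 84676302 to 84700333, plus strand) overlap on opposite strands, so reads in the overlap can be told apart only where counting used the strand. Abca1 (ENSMUSG00000015243) lies on chromosome 4, 53030787 to 53159895, minus strand. Osbpl3 (ENSMUSG00000029822) lies on chromosome 6, 50293330 to 50456201, minus strand. Gramd1b (ENSMUSG00000040111) lies on chromosome 9, 40293233 to 40531383, minus strand, and shares its interval with 3 annotated genes on the same strand and 3 on the other. Abcg1 (ENSMUSG00000024030) lies on chromosome 17, 31057675 to 31117988, plus strand. Soat1 (ENSMUSG00000026600) lies on chromosome 1, 156424525 to 156474331, minus strand. Scarb1 (ENSMUSG00000037936) lies on chromosome 5, 125277087 to 125341094, minus strand. Soat2 (ENSMUSG00000023045) lies on chromosome 15, 102150526 to 102163469, plus strand, and Lpcat3 (ENSMUSG00000004270) on chromosome 6, 124663027 to 124704418, plus strand.

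RefSeq promoter windows of 300 bases (250 before and 50 after a start site, GRCm38.p6) were at hand for 6 of the 10 genes. Abca1 is shown because it is a classical LXR target, and Abcg5 and Abcg8 because they share a promoter region and, as described below, a zonal pattern. The Abca1 window is chr4:53159846-53160145 on the minus strand, that of Abcg5 is chr17:84682962-84683261 on the minus strand, and the Abcg8 window nearest to it is chr17:84682871-84683170 on the plus strand. The last pair overlap by 209 bases read in opposite directions. Capitals mark motif matches: in the Abca1 window the first run is an E-box (CACGTG) and the second is the reverse strand of a DR4-like repeat (GGTNA, any 5 bases, GGTNA), the kind of spaced repeat that LXR with RXR can bind.
Abca1: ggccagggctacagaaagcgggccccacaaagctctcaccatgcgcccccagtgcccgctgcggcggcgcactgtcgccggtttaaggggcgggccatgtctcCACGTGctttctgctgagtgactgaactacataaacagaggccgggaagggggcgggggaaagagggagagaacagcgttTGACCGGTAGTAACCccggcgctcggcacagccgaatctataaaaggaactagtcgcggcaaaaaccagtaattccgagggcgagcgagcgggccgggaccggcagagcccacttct
Abcg5: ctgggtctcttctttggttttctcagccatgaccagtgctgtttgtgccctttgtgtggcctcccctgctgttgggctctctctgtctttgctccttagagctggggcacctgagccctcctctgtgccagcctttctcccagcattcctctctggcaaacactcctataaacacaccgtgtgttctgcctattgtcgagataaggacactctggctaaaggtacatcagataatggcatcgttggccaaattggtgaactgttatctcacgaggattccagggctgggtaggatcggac
Abcg8: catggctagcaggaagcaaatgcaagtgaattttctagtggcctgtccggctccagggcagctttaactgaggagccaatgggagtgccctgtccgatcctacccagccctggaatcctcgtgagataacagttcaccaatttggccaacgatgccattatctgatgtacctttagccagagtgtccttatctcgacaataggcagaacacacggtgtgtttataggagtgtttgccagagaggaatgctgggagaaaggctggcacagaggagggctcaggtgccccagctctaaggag

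On both strands, the DR4-like letters were in 0.718% and the E-box in 7.15% of all 32851 promoter windows of this length. The SREBP-type letters TCACNCCAC (1.24% of windows), the HNF4-type letters CAAAGTCCA (0.475%) and the TCF-type letters CTTTGAT (3.73%) were in none of the windows of the 6 genes, nor did the other 5 genes hold the DR4-like repeat or the E-box. A match is a run of letters and not a measured binding site, and the matches in Abca1 do not overlap each other.

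Hepatocyte nuclei numbered 4221, 6744 and 7006 in the chow libraries (replicates 1, 2 and 3, the order used throughout) and 2684 and 2611 in the MASH libraries (replicates 1 and 2), with 15125194 to 39316007 UMIs per library and medians of 3871.5 to 5475 UMIs per nucleus. The macrophage gate held 260, 259 and 298 nuclei in chow and 2566 and 1740 in MASH, with 557740 to 692848 UMIs per chow library and 5633854 and 4332885 in MASH. Pairs of libraries shared 23 to 48 barcodes, at most 0.399% of the smaller library. The median mitochondrial share in MASH replicate 1 was 2.61% in hepatocyte nuclei and 9.58% in macrophage-gated nuclei, against 0.425% and 1.12% in MASH replicate 2. In the chow libraries it was 0.794%, 2.56% and 1.01% in hepatocyte nuclei and 2.69%, 6.51% and 2.75% in macrophage-gated nuclei.

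The gates checked against their markers to different degrees. In hepatocyte nuclei all 7 hepatocyte markers were detected in every library, Hnf4a by the gate itself. Their summed level was 7350 to 10520 CPM (UMIs scaled to the total of each library's nuclei) in chow and 3376 to 3496 in MASH. Those nuclei also held all 13 listed macrophage markers, at a sum of 56.5 to 81.8 CPM in chow and 237 to 382 in MASH, and cholangiocyte markers at 35.5 to 78.2 and 265 to 450. The macrophage gate was mixed. At least 3 of the 13 macrophage markers, which include the gate genes, were found in 130 of 260, 93 of 259 and 177 of 298 chow nuclei. In MASH they were found in 1322 of 2566 and 989 of 1740 nuclei. Summed hepatocyte markers of the macrophage gate, with Hnf4a at 0 by the gate, stood at 4839 to 7142 CPM in chow and 2179 to 2797 in MASH. This was 64.5% to 92.2% of the level in hepatocyte nuclei of the same library. Another list of 8 genes, for hepatocyte RNA in other nuclei and with Alb and Apoa1 in it, was above hepatocyte nuclei in every library. It summed to 12957, 35002 and 32242 CPM in chow and 17305 and 9408 in MASH. Hepatocyte nuclei held 12381, 19598 and 20169 in chow and 11228 and 8394 in MASH. A purer macrophage gate, added after this was seen, needed at least 3 macrophage markers, more than of any other non-hepatocyte list, and no Hnf4a or Cps1. It kept 80, 26 and 122 chow nuclei and 1079 and 766 MASH nuclei. Hepatocyte markers were at 26.0% to 63.3% of the hepatocyte level there, with Hnf4a and Cps1 at 0 by the gate. The list of 8 genes summed to 15584, 41482 and 33741 CPM in chow and 18411 and 7601 in MASH. These sums were above the first macrophage gate except in MASH replicate 2. The name purer thus refers to the macrophage marker rule and not to less hepatocyte RNA.

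**Figure D1:**
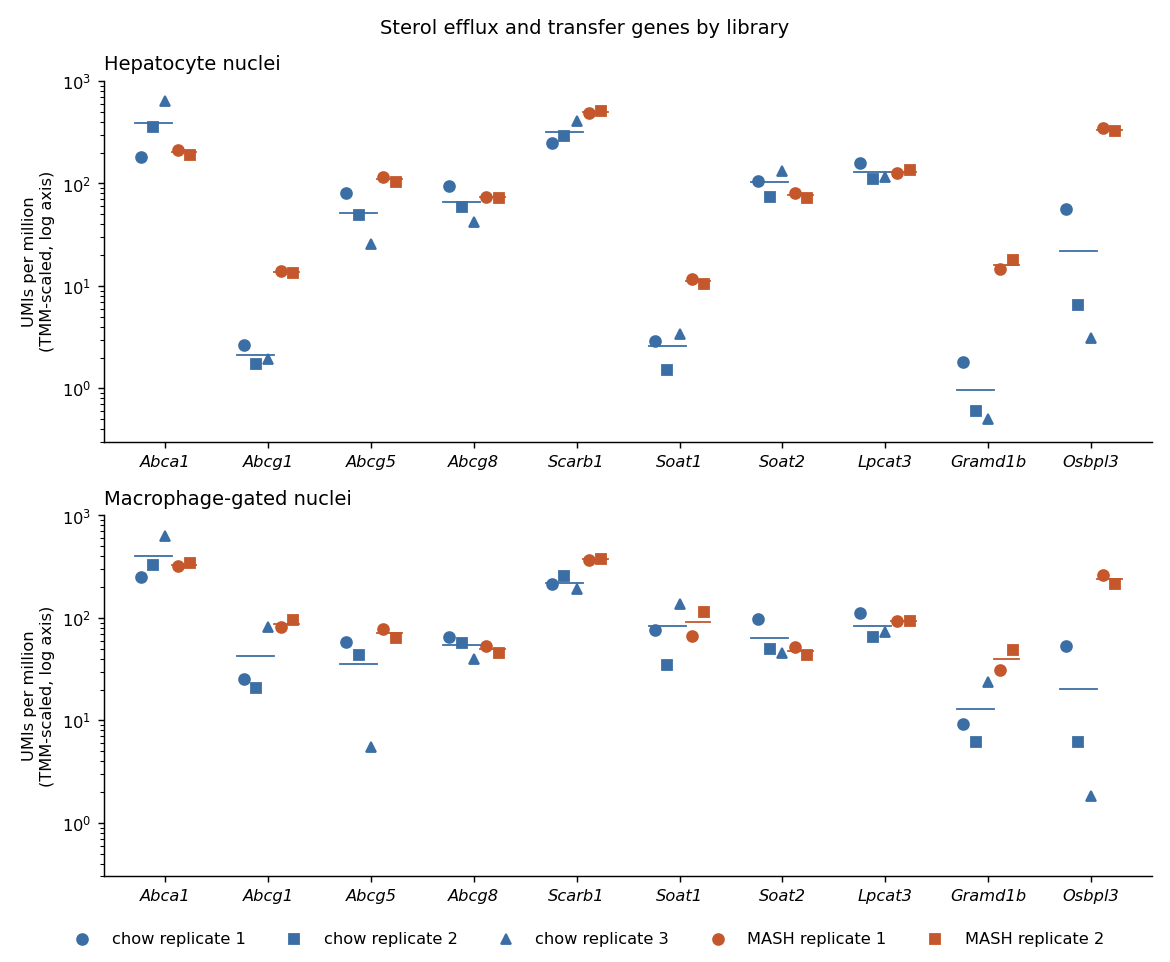
TMM-scaled CPM (log axis) of the 10 genes in each library, in hepatocyte nuclei (top) and macrophage-gated nuclei (bottom). Points are libraries (chow blue, MASH orange, shape by replicate) and bars are group means. In hepatocyte nuclei Abcg1, Soat1, Gramd1b and Osbpl3 were higher in both MASH libraries than in any chow library, while in macrophage-gated nuclei the diets overlapped for Abcg1 and Soat1.

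The first comparison asked which of these genes differed between the diets in hepatocyte nuclei. Abcg1, Soat1, Gramd1b and Osbpl3 rose in MASH, and the other 6 genes did not pass the test. The 4 genes that rose are an HDL-directed exporter, a cholesterol esterifying enzyme and both carriers of the list. Sums were tested with the edgeR quasi-likelihood test over all 15377 genes that passed its filter, all 10 members among them, and calls needed an adjusted p under 0.05. Of all genes 9.32% were called higher and 4.53% lower (13.8% in either direction), against 4 of 10 members higher and 0 lower. The median log2 fold change of the members was 0.87, beside 0.00071 over all genes tested. Because the members were picked with earlier results known, these counts describe the list only.

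Among the exporters, Abcg1 stood at 2.65, 1.72 and 1.95 CPM (TMM-scaled here and below, unless said to be plain) in chow and at 14.0 and 13.4 CPM in MASH. Every chow library was below both MASH libraries, with 235 and 279 UMIs against 49 to 69. The log2 fold change was 2.70 (SE 0.33, adjusted p 0.00527), and Abcg1 was called under every one of its 15 alternatives, at 2.52 to 2.94.

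Abca1, which exports cholesterol to lipid-poor apolipoprotein A-I, was at 179.8, 356 and 642 CPM in chow and 213 and 189 in MASH. The chow libraries spread over the MASH libraries, with the lowest level of all 5 in chow replicate 1 and the highest in chow replicate 3. Its log2 fold change of -0.97 (SE 0.50, adjusted p 0.219) had a 95% interval of -2.14 to 0.20. Without chow replicate 1 it was -1.32 and called lower (adjusted p 0.0499).

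The partners in the biliary sterol pump differed in the size of their changes. Abcg5 was at 79.9, 49.5 and 25.6 CPM in chow and 117 and 103 in MASH, so both MASH libraries were highest. Its log2 fold change was 1.09 (SE 0.42, adjusted p 0.119, 95% interval 0.11 to 2.07) and did not pass, and without chow replicate 1 it was 1.54 and called (adjusted p 0.0324). Abcg8 was at 94.4, 59.1 and 42.3 CPM in chow and 74.6 and 71.9 in MASH. Its groups overlapped, with a fitted log2 change of 0.17 (SE 0.34, adjusted p 0.761, 95% interval -0.62 to 0.96). The difference between the changes of this pair was not tested.

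Scarb1, the HDL receptor, was at 249, 288 and 407 CPM in chow and 486 and 509 in MASH. No chow library reached the MASH levels, but the log2 fold change of 0.66 (SE 0.31, adjusted p 0.179, 95% interval -0.06 to 1.39) did not pass.

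The esterifying enzymes are known from different cells: SOAT1 is the form of most cells, macrophages included, and SOAT2 that of hepatocytes and enterocytes. Soat1 was at 2.88, 1.51 and 3.43 CPM in chow and 11.7 and 10.5 in MASH, with no overlap. Its log2 fold change was 2.09 (SE 0.40, adjusted p 0.0189), and the call was lost without MASH replicate 1 (2.00, adjusted p 0.149) or MASH replicate 2 (2.17, adjusted p 0.124). Soat2 was at 105, 73.1 and 133 CPM in chow and 80.3 and 72.7 in MASH. Chow replicate 2 lay among the MASH libraries, and the log2 fold change was -0.44 (SE 0.30, adjusted p 0.338, 95% interval -1.13 to 0.26).

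Lpcat3 differed least: it was at 157, 111 and 117 CPM in chow and 125 and 135 in MASH, both MASH values inside the chow range. The log2 fold change was 0.02 (SE 0.26, adjusted p 0.969, 95% interval -0.58 to 0.62), so changes of up to 0.62 on the log2 scale lie within the error.

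The carriers had the largest rises of the list in these nuclei. Gramd1b, which moves accessible cholesterol from the plasma membrane to the endoplasmic reticulum, was at 1.80, 0.598 and 0.505 CPM in chow (47, 17 and 15 UMIs) and 14.5 and 17.8 in MASH (243 and 371 UMIs). Its log2 fold change was 4.06 (SE 0.55, adjusted p 0.00716), and it was called under all 15 alternatives, at 3.69 to 6.16. Osbpl3, an oxysterol-binding-protein relative, was at 55.8, 6.54 and 3.13 CPM in chow and 347 and 324 in MASH. The MASH libraries nearly coincided, while chow replicate 1 stood far above the other chow libraries.

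The Osbpl3 log2 fold change was 3.94 (SE 1.05, adjusted p 0.0464), close to the threshold. It was 6.11 without chow replicate 1 (adjusted p 0.00696) and 3.45 without chow replicate 2, where the call was lost (adjusted p 0.125), as it was without either MASH library (adjusted p 0.145 and 0.14), with relative log expression size factors (0.0506), with a stricter filter on low counts (0.0621) and without possible doublets (0.0572). Over all 15 alternatives the log2 fold change was 3.36 to 6.11.

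Markers of macrophages and cholangiocytes moved with diet in the same nuclei, as given above. So did the summed T cell markers (8.21 to 18.9 CPM in chow, 66.9 to 89.1 in MASH, 10 of 10 detected) and stellate cell markers (98.0 to 188 CPM in chow, 373 to 407 in MASH, 11 of 11 detected), while endothelial and B cell markers overlapped between the diets. An alternative left out nuclei holding a UMI of Ptprc, Clec4f, Cd5l, Gpnmb, Ms4a7, Stab2, Dcn or Epcam, or over 3 times the median UMIs. It kept 3383, 5769 and 5765 chow nuclei and 1390 and 1243 MASH nuclei. The log2 fold changes were then 2.94 for Abcg1 (adjusted p 0.0141), 2.68 for Soat1 (adjusted p 0.0232), 6.16 for Gramd1b (adjusted p 0.00126) and 4.05 for Osbpl3 (adjusted p 0.0572). Free RNA stays in the kept nuclei, and their marker sums were not taken. What part RNA of other cells has in these rises was not tested.

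**Figure D2:**
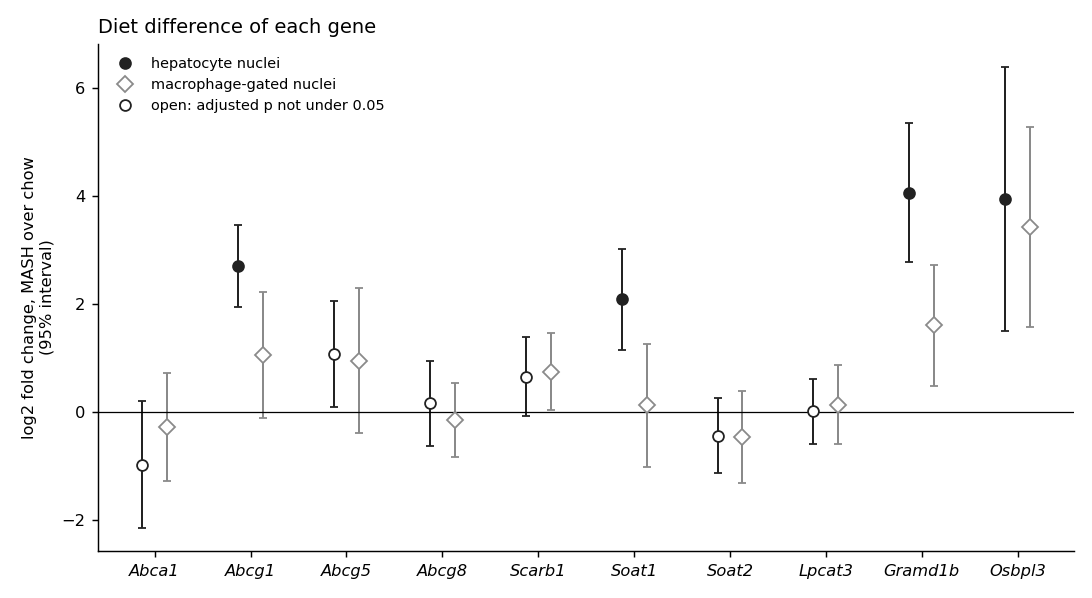
Log2 fold change of MASH over chow for each gene with its 95% interval, in hepatocyte nuclei (circles) and macrophage-gated nuclei (diamonds), from the edgeR fits. Filled symbols passed an adjusted p under 0.05. The 4 filled circles are Abcg1 (2.70), Soat1 (2.09), Gramd1b (4.06) and Osbpl3 (3.94), and no diamond is filled.

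The share of hepatocyte nuclei with at least 1 UMI of a gene was compared after thinning every nucleus to 1000 UMIs, which left out none. Over all genes tested, 53.8% had shares that did not overlap between the diets, and 6 of the 10 members did not overlap, all higher in MASH (41.2% of all genes). The member count is thus near the background. Osbpl3 was found in 5.18%, 0.542% and 0.217% of chow nuclei and in 29.4% and 30.0% of MASH nuclei (exact permutation p 0.1, two-sided, the smallest that 3 against 2 libraries allow). Without thinning its share was 1.21% to 20.3% in chow and 73.6% to 76.3% in MASH. Abcg1 was found in 0.123% to 0.201% of thinned chow nuclei and 1.23% to 1.44% of MASH nuclei, Soat1 in 0.098% to 0.226% and 0.995% to 1.11%, and Gramd1b in 0.0285% to 0.133% and 1.46% to 2.00%. Scarb1 went from 22.1% to 25.4% in chow to 39.2% to 43.7% in MASH. Abcg5, with 1.85% to 8.22% and 11.4% to 11.7%, also did not overlap (exact permutation p 0.2). Abca1, Abcg8, Lpcat3 and Soat2 overlapped.

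For reference, macrophage-gated nuclei at the same 1000 UMIs carried Abcg5, known from hepatocytes and enterocytes, in 4.67% to 4.79% of MASH nuclei, with median depths before thinning of 1518 and 1661.5 UMIs against 4870.5 and 5475 in hepatocyte nuclei. Osbpl3 was carried there by 13.3% to 15.7% of MASH nuclei. Abcg1 (7.75% to 12.1%), Soat1 (7.06% to 13.6%) and Gramd1b (2.87% to 6.07%) were carried by a larger share of macrophage-gated than of hepatocyte nuclei in both MASH libraries. These macrophage shares leave out 36 to 69 chow and 367 to 447 MASH nuclei with under 1000 UMIs. Thinned to 500 UMIs, which left out none, 3 of 10 members did not overlap between the diets in macrophage-gated nuclei, beside 22.0% of all genes: Osbpl3 (0.0831% to 2.14% in chow, 7.03% to 7.97% in MASH) and Scarb1 (7.29% to 10.2% and 11.4% to 14.4%) were higher, where 10.4% of all genes were, and Soat2 (1.95% to 3.15% and 1.57% to 1.63%) was lower, where 11.6% were.

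The same comparison in macrophage-gated nuclei called 0 of the 10 genes. The edgeR test covered 9273 genes and called 1.36% of them (0.636% as higher in MASH, 0.723% as lower), while 1388 had an unadjusted p under 0.05, 3 members among them at 0.00257 (Osbpl3), 0.0100 (Gramd1b) and 0.0385 (Scarb1). DESeq2 called 1 member, Osbpl3. The median log2 fold change of the members was 0.45, beside -0.017 over all genes tested.

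Osbpl3 was at 53.1, 6.16 and 1.83 CPM in chow (40, 3 and 1 UMIs) and 261 and 216 in MASH. No chow library reached the MASH levels, and the log2 fold change was 3.43 (SE 0.81, adjusted p 0.0915). It was called with DESeq2 (adjusted p 0.0062), without chow replicate 1 (5.90, adjusted p 0.00609), without possible doublets (3.82, adjusted p 0.00618) and in the purer gate (3.34, adjusted p 0.0145). As a share of its plain CPM in hepatocyte nuclei of the same library, Osbpl3 in this gate was at 94.7%, 90.5% and 69.6% in chow and 61.7% and 61.7% in MASH, beside 65.8%, 92.2%, 67.9%, 80.0% and 64.5% for the hepatocyte markers. What part hepatocyte RNA has in the Osbpl3 counts of this gate was not tested.

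Gramd1b was at 9.300, 6.16 and 23.7 CPM in chow and 30.9 and 48.3 in MASH, which gave 1.61 on the log2 scale (SE 0.49, adjusted p 0.163). Abcg1 was at 25.2, 20.5 and 82.1 CPM in chow and 81.4 and 95.03 in MASH, which gave 1.06 on the log2 scale (SE 0.51, adjusted p 0.379). Chow replicate 3 lay with the MASH libraries for Abcg1, and without it Abcg1 (1.90, adjusted p 0.0248) and Gramd1b (2.28, adjusted p 0.0499) were both called. In the purer gate, Abcg1 was 0.69 (adjusted p 0.534) and Gramd1b 1.096 (adjusted p 0.506).

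Soat1 was at 75.7, 34.9 and 137 CPM in chow and 67.2 and 114 in MASH, with MASH inside the chow range and a log2 fold change of 0.13 (SE 0.50, 95% interval -1.02 to 1.27). Abca1 was at 250, 327 and 624 CPM in chow and 320 and 342 in MASH, a log2 fold change of -0.27 (95% interval -1.28 to 0.73). Scarb1 was at 217, 255 and 192 CPM in chow and 367 and 379 in MASH, which did not overlap, at 0.75 (SE 0.31, adjusted p 0.298). The remaining 4 genes had log2 fold changes of -0.47 (Soat2), -0.14 (Abcg8), 0.14 (Lpcat3) and 0.96 (Abcg5), the last with 3 UMIs in chow replicate 3.

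Whether the diet differences themselves differed between the gates was tested by fitting both gates together, with each library as a block. The diet difference was smaller in macrophage-gated than in hepatocyte nuclei for Abcg1 (-1.55 on the log2 scale, SE 0.35, adjusted p 0.00316), Soat1 (-1.93, SE 0.30, adjusted p 1e-05) and Gramd1b (-2.43, SE 0.52, adjusted p 0.0017). Of 15512 genes, 3.95% were called, 3.60% in this direction, against 3 of 10 members. What part RNA of other cells in either gate has in these differences was not tested. In the purer gate the same 3 genes were called, at -2.01, -2.11 and -3.00. Without chow replicate 3 none of the 3 was called (-0.54, -1.51 and -1.18, adjusted p 0.569, 0.0501 and 0.438), without MASH replicate 1 only Gramd1b was, and with DESeq2 Abcg1 was not (adjusted p 0.177).

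Levels by cell class are given in plain CPM, as a description, since the classes were gated on measured markers. Classes other than hepatocytes needed no Hnf4a UMI and at least 3 of their own markers, and sums of fewer than 20 nuclei were left out. Abcg1 was low in hepatocyte nuclei, at 2.89, 1.57 and 1.48 CPM in chow and 15.5 and 16.1 in MASH. Endothelial-like nuclei held 39.0, 30.0 and 46.9 CPM in chow and 70.3 and 79.2 in MASH, stellate-like nuclei 22.4 to 29.0 and 31.8 to 44.1. Cholangiocyte-like nuclei of MASH, at 17.4 and 20.6, lay next to the hepatocyte nuclei, and those of chow replicate 3, only 21 nuclei, held 0 UMIs, where 3 would be 89.7 CPM. In the purer macrophage gate Abcg1 reached 117, 0 and 160 CPM in chow and 139 and 226 in MASH, the 0 resting on 26 nuclei where 3 UMIs would be 99.96 CPM.

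Soat1 was ordered alike over 3 of these classes, with 1.37 to 3.14 CPM in chow hepatocyte nuclei, 17.5 to 29.5 in endothelial-like and 66.6 to 293 in the purer macrophage gate. In MASH these were 12.6 to 13.03, 40.3 to 45.6 and 122 to 289. The macrophage levels overlapped between the diets and the hepatocyte levels did not.

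Gramd1b had its highest MASH levels in T-like (86.5 and 120 CPM) and cholangiocyte-like nuclei (77.2 and 127), above hepatocyte nuclei (16.1 and 21.4). The T-like sums were small, with 90 and 54 nuclei and 138759 and 58379 UMIs of all genes, so their levels rest on few Gramd1b UMIs. Osbpl3 was as high in cholangiocyte-like (406 and 359 CPM) as in hepatocyte nuclei of MASH (384 and 388), and lower in endothelial-like (166 and 202) and purer macrophage nuclei (126 and 135). In chow, Osbpl3 was at 0 to 52.0 CPM in endothelial-like nuclei and at 28.3 to 55.5 in stellate-like nuclei. The Osbpl3 chow sums of the purer gate held 4, 0 and 0 UMIs. In chow replicates 2 and 3 stellate-like nuclei were thus above hepatocyte nuclei, which held 5.94 and 2.37 CPM.

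Abca1 was spread over all classes, at 162 to 385 CPM in the hepatocyte, endothelial-like, stellate-like, cholangiocyte-like and purer macrophage sums of MASH replicate 1 and at 129 to 630 in those of MASH replicate 2, with the purer macrophage gate highest in both. Abcg5, Abcg8, Lpcat3, Scarb1 and Soat2 were below the hepatocyte level in the purer macrophage gate of every library, at 0% to 74.0%. Hepatocyte markers there were at 26.0% to 63.3%, with Hnf4a and Cps1 at 0 by the gate. Whether Abcg5, Abcg8, Lpcat3, Scarb1 and Soat2 are transcribed in macrophages was not tested.

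**Figure D3:**
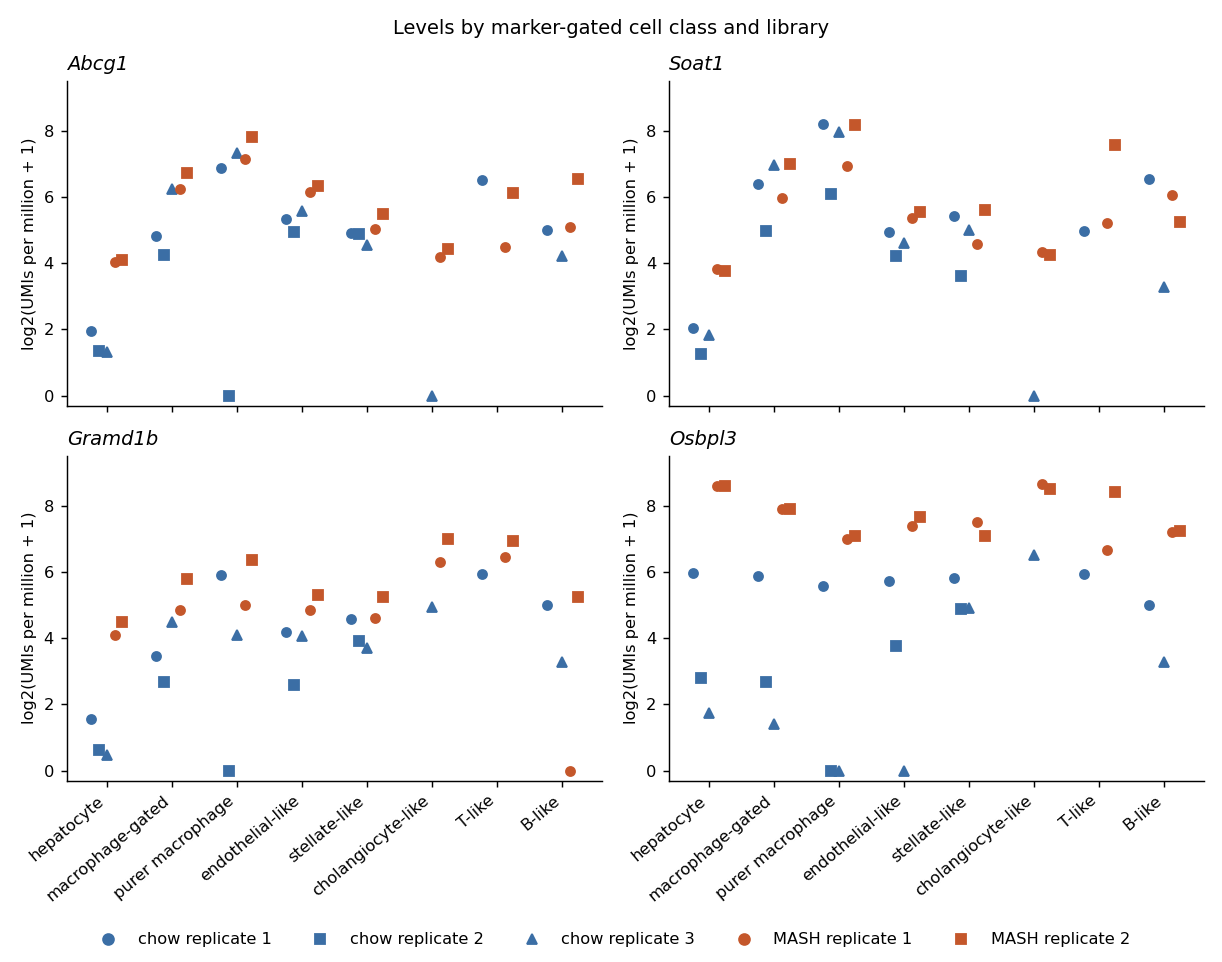
Plain CPM, as log2(CPM + 1), of Abcg1, Soat1, Gramd1b and Osbpl3 in marker-gated nuclei, 1 point per library with at least 20 nuclei. In MASH, Abcg1 and Soat1 were lowest in hepatocyte nuclei and highest in the purer macrophage gate, where Abcg1 was at 139 and 226 CPM, and Osbpl3 was higher in MASH than in chow in each class that both diets had.

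Within the macrophage gate of MASH, nuclei with Gpnmb or Ms4a7 and neither Clec4f nor Cd5l (439 and 668 nuclei) were set beside nuclei with Clec4f or Cd5l only (1722 and 689 nuclei). Gpnmb and Ms4a7 are known from lipid-associated macrophages and Clec4f and Cd5l from Kupffer cells, but 1 UMI sufficed here. Summed hepatocyte markers were at 2799 and 2294 CPM in the former nuclei and 2921 and 2348 in the latter. Macrophage markers, gate genes included, were at 1629 and 2015 against 2079 and 1851. What part hepatocyte RNA has in the levels below was not tested. Abcg1 was at 71.3 and 90.3 CPM in the Gpnmb or Ms4a7 nuclei and 50.8 and 76.2 in the Clec4f or Cd5l nuclei. Osbpl3 was at 369 and 300 CPM against 231 and 221. Soat1 was at 49.9 and 102 against 45.4 and 82.9. All 3 were higher in the Gpnmb or Ms4a7 nuclei of both libraries, while Gramd1b (24.4 and 45.5 against 22.4 and 47.8) was not. Chow had at most 10 nuclei of the former kind.

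Hepatocyte nuclei with at least 3 of Nrg1, Anxa2, Gdf15, Sox4, Klf6 and Jun, genes that mark disease-associated hepatocytes, numbered 1020 and 1001 in MASH. Their median depth was 6037.5 and 7428 UMIs against 4288 and 4644.5 in the other hepatocyte nuclei, as a gate on several genes favours deep nuclei. Abcg1 was at 21.4 and 19.9 CPM in them and 9.95 and 12.1 in the others. Soat1 was at 16.4 and 14.6 against 9.82 and 10.5, and Osbpl3 at 432 and 426 against 339 and 348. Abcg5 went the other way, at 117 and 108 against 141 and 139, as did Scarb1, at 509.7 and 577 against 567 and 644. Abcg1 and Soat1 were also higher in macrophage-gated than in hepatocyte nuclei of both MASH libraries. What part RNA of other cells has in the levels of the marker-positive nuclei was not tested. In the other hepatocyte nuclei alone Abcg1 and Osbpl3 were still higher in MASH than in every chow library, where they reached 2.34 and 61.0 CPM.

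The next comparison asked how these genes were placed along the liver lobule, which runs from the portal tract (periportal) to the central vein (pericentral). Hepatocyte nuclei of each library were cut into 3 equal groups by a score of 9 pericentral minus 9 periportal genes, none of them a member, and the groups were tested together in edgeR, each library being a block. Genes held out of the score followed it in all 5 libraries: Lgr5 and Tbx3 were highest in pericentral nuclei and Etnppl in periportal nuclei. Apoa4, held out as periportal, did so in chow but not in MASH. Median depth was 3700 to 5485 UMIs in the chow groups and 4811 to 5553.5 in the MASH groups.

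In chow, 6 of the 10 genes differed between pericentral and periportal nuclei: Osbpl3, Abcg8 and Abcg5 were pericentral, and Scarb1, Soat2 and Abca1 periportal. Of 14615 genes tested, 28.4% were called, 14.8% pericentral and 13.6% periportal. Osbpl3 was at 6.86, 2.78 and 0.995 CPM in periportal chow nuclei, at 44.7, 4.81 and 2.23 in the middle, and at 114, 11.8 and 5.87 in pericentral nuclei. It thus climbed in every chow library, from levels that differed between libraries. The log2 difference of pericentral over periportal was 3.45 (SE 0.23, adjusted p 8.1e-09).

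The biliary pump shared this direction. Abcg5 was at 56.4, 36.9 and 15.3 CPM in periportal and 110, 62.1 and 38.8 in pericentral chow nuclei, a log2 difference of 0.99 (SE 0.09). Abcg8 was at 66.6, 42.9 and 21.8 CPM in periportal and 127, 75.7 and 65.3 in pericentral nuclei, a log2 difference of 1.08 (SE 0.11). Both were called under all 9 alternatives.

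Scarb1 ran against them, at 308, 337 and 513 CPM in periportal and 216, 221 and 291 in pericentral chow nuclei, a log2 difference of -0.65 (SE 0.06). Soat2 was at 118, 81.9 and 149.7 CPM in periportal and 101, 61.0 and 114 in pericentral nuclei, a log2 difference of -0.35 (SE 0.06, adjusted p 0.00043). Abca1 had the smallest called difference, -0.21 (SE 0.05, adjusted p 0.00429), from 199, 386 and 681 CPM to 176, 321 and 594. The Abca1 call was lost with 2 zone groups in place of 3 (-0.16, adjusted p 0.0615) and without chow replicate 2 (-0.19, adjusted p 0.0591). Abcg1 (-0.28), Soat1 (-0.31), Gramd1b (-0.21) and Lpcat3 (-0.03) did not pass. For the first 3 the chow groups held few UMIs, and the 95% intervals were -0.88 to 0.32, -0.95 to 0.33 and -1.09 to 0.66.

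In MASH only Abcg1 passed, lower in pericentral nuclei by the test (log2 difference -0.70, SE 0.19, adjusted p 0.0247), where 11.7% of all genes were called, 6.24% pericentral and 5.50% periportal. It was at 14.5 and 15.6 CPM in periportal, 17.3 and 15.0 in the middle and 9.08 and 9.48 in pericentral nuclei. The call was lost with DESeq2 (adjusted p 0.149), with 2 zone groups, and without either MASH library. Gramd1b (-0.51, adjusted p 0.0754), Soat2 (-0.22, adjusted p 0.107) and Abcg8 (0.29, adjusted p 0.193) did not pass.

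The zone difference itself changed with diet for Osbpl3, Abcg5, Abcg8 and Scarb1, 4 of 10 members. Of all genes 5.64% were called, 2.81% with a higher and 2.83% with a lower zone difference in MASH, against 1 and 3 members. For Osbpl3 the MASH libraries held 286 and 302 CPM in periportal, 381 and 353 in middle and 356 and 314 in pericentral nuclei. This was a zone difference of 0.18, against 3.45 in chow, and the interaction was -3.27 (SE 0.27, adjusted p 2.9e-06). In each of the 3 zones both MASH levels were above those of every chow library.

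Abcg5 was at 114 and 103 CPM in periportal and 123 and 98.3 in pericentral MASH nuclei, so its zone difference fell from 0.99 to 0.02, an interaction of -0.97 (SE 0.14, adjusted p 0.00053). In pericentral nuclei chow replicate 1, at 110 CPM, lay between the MASH libraries, while in periportal nuclei both MASH libraries were above all of chow. Abcg8 had an interaction of -0.79 (SE 0.17, adjusted p 0.0114), with 71.9 and 62.2 CPM in periportal and 85.3 and 78.4 in pericentral MASH nuclei. That call was lost with 2 zone groups (adjusted p 0.0905), without MASH replicate 1 (adjusted p 0.136) and without MASH replicate 2 (adjusted p 0.118).

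For Scarb1 the direction was the opposite, an interaction of 0.71 (SE 0.10, adjusted p 0.00047). It was at 488 and 520 CPM in periportal and 525 and 529 in pericentral MASH nuclei. Pericentral MASH nuclei were above pericentral nuclei of every chow library, and in periportal nuclei chow replicate 3, at 513 CPM, lay between the MASH libraries. Abca1 had an interaction of 0.28 that did not pass (SE 0.08, adjusted p 0.0558). The interactions of Osbpl3, Abcg5 and Scarb1 were called under all 9 alternatives.

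**Figure D4:**
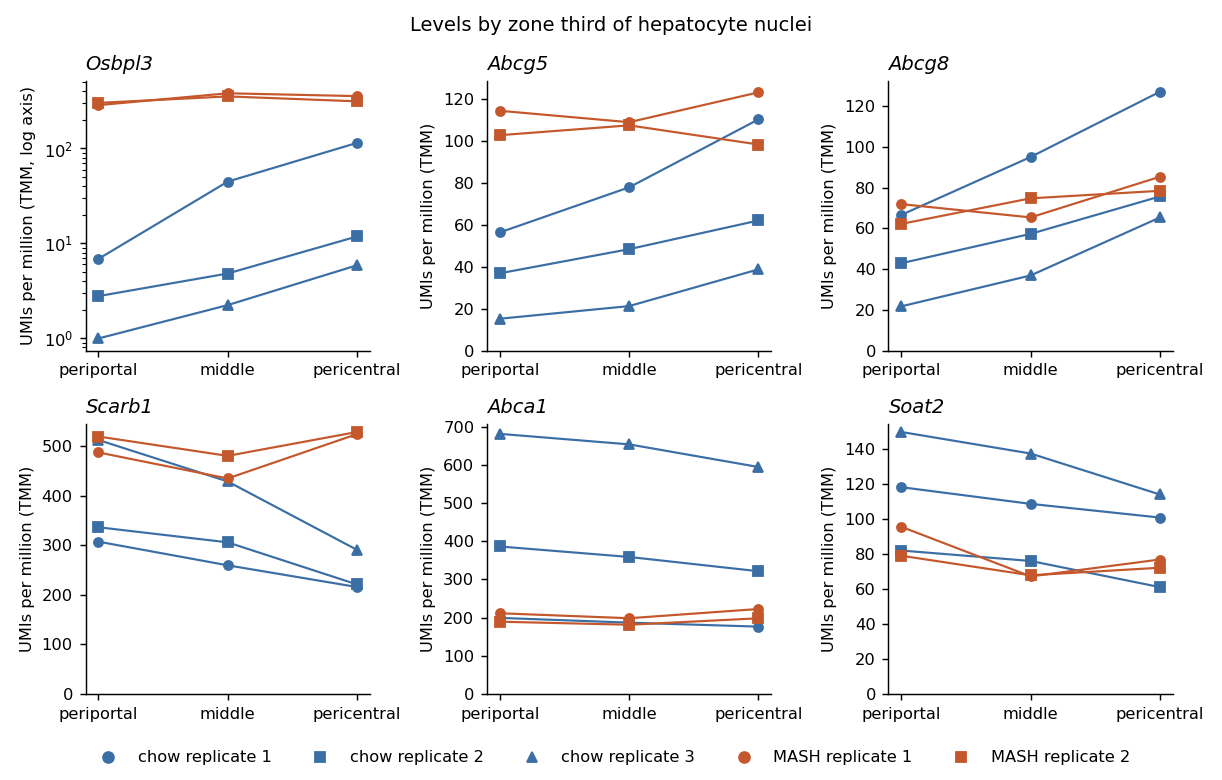
TMM-scaled CPM of 6 genes in periportal, middle and pericentral hepatocyte nuclei, 1 line per library (chow blue, MASH orange), with a log axis for Osbpl3 and axes from 0 for the others. The chow lines climb to pericentral nuclei for Osbpl3, Abcg5 and Abcg8 and fall for Scarb1, Abca1 and Soat2, while the MASH lines of Osbpl3 stay between 286 and 381 CPM.

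Other genes of the pathway were read from fixed lists with the same fits. In hepatocyte nuclei 9.32% of all genes rose with the diet and 4.53% fell, and of 12 other LXR targets 4 rose and 0 fell: Lpl, a lipoprotein lipase (3.56 on the log2 scale, adjusted p 0.00187), Srebf1, which drives fatty acid synthesis (2.53, adjusted p 0.00559), Scd2, a desaturase (3.35, adjusted p 0.00657), and Arl4c, a small GTPase (2.35, adjusted p 0.0222). The median of that list was 1.22. Mean MASH levels in macrophage-gated against hepatocyte nuclei were 486 and 69.9 CPM for Lpl, 57.0 and 10.0 for Scd2 and 34.3 and 4.98 for Arl4c. For Srebf1 they were 251 and 333 CPM. What part RNA of other cells has in the rises of these 4 genes was not tested. Of 8 LXR receptors and partners 0 rose and 1 fell, the coactivator subunit Med1 (-1.12, adjusted p 0.0351), and Rxrb, next by p, was -0.63 (adjusted p 0.0962).

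Of the genes of sterol uptake and lysosomal egress, Cd36 (1.59, adjusted p 0.0282) and Msr1 (1.46, adjusted p 0.0494), which encode scavenger receptors also known from macrophages, rose. Of 13 tested other sterol carriers, Osbpl5 (2.53, adjusted p 0.0361) and Osbpl7 (1.80, adjusted p 0.0426) rose and Stard4, a target of SREBP2, fell by 1.94 (adjusted p 0.0173). Of 10 genes of HDL and ester handling 0 were called, and Lipc (-1.77, adjusted p 0.0563) and Lcat (-0.89, adjusted p 0.0576) came nearest.

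In macrophage-gated nuclei Stard4 was called, lower by the test (-2.17, adjusted p 0.0489). Srebf1 (2.39, adjusted p 0.0512), Scd2 (2.44, adjusted p 0.0996) and Cd36 (1.93, adjusted p 0.105) did not pass.

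Along the lobule in chow, where 14.8% of all genes were called pericentral and 13.6% periportal, 4 of the 12 other LXR targets were pericentral and 2 periportal, among them Cyp7a1, the rate-limiting enzyme of bile acid synthesis (2.25), and Srebf1 (-0.37). Of the HDL and ester genes 3 were pericentral, Nceh1 (1.07) and Lipg (1.11) among them, and 4 periportal, Apoa1 (-0.56) among them, and of the other carriers 5 were pericentral and 3 periportal. Lpl (1.73) and Cd36 (1.64) were pericentral like Osbpl3, and Stard4 (-0.75) periportal like Scarb1. The zone difference changed with diet in the same direction as for Osbpl3 in Lpl (-2.05, adjusted p 6e-05) and Cd36 (-1.56, adjusted p 0.00237). It changed in the direction of Scarb1 in Stard4 (0.83, adjusted p 0.00634), Apoa1 (0.56, adjusted p 0.0149) and Lipa (0.49, adjusted p 0.0128). Lipc (0.42, adjusted p 0.0348) and Lcat (0.33, adjusted p 0.0342) did so too. Of all genes 2.81% were called with a higher and 2.83% with a lower zone difference in MASH. Among the HDL and ester genes 3 of 10 were called higher and 0 lower. Of 12 other LXR targets 0 were called higher and 1 lower, and of 12 tested other carriers 1 and 0. Of 8 LXR receptors and partners 0 were called, and not all of the 10 uptake and egress genes are reported here.

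As a description, the genes most like each member over 30 sums of a class in a library were found by the Pearson correlation of log2(CPM + 1) among 11998 genes with a mean of at least 5 CPM. The sums of a library share its depth and its free RNA. Abcg1 was most like Tgfb1 (r 0.94) and Atp8a1 (r 0.90), and Soat1 most like Atp8a1 (r 0.93) and Trim30a (r 0.92). Abcg5 was most like Dglucy (r 0.97) and Pacsin3 (r 0.96), Soat2 like Fggy (r 0.91) and AI463229 (r 0.90), Lpcat3 like Agxt2 and Cebpe (r 0.87 each), and Scarb1 like Mindy1 (r 0.87) and Mia3 (r 0.86). Abcg8 was most like Fam214a and Shmt1 (r 0.84 each), Osbpl3 like Brd8 (r 0.83) and Nt5c2 (r 0.82), Gramd1b like Ppp3cb (r 0.83) and Tnfaip3 (r 0.80), and Abca1, with the weakest match, like Cep85 (r 0.78) and Hmox1 (r 0.73).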

How the data were processed

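The authors deposited raw UMI counts per gene and nucleus for 3 chow and 2 MASH libraries, made with Cell Ranger 8.0.1 on GRCm38 per the submitters' processing notes. According to the study's methods, intronic reads were left out. Of the 32285 gene identifiers 99.6% matched GENCODE M21. Counts were summed per library within each gate and tested by quasi-likelihood in edgeR 4.0.16 under R 4.3.3 (TMM, filterByExpr, Benjamini-Hochberg adjustment over all genes tested, two-sided). Gate genes and zone score genes were not tested. Alternatives were DESeq2 1.42.0, other size factors, filters and gates, Storey q-values, a replicate block and leaving out each library. Scripts were tested on simulated data. Standard errors are absolute log2 differences divided by the root of F. No doublet caller was run, and an alternative leaves out nuclei with markers of other cells. The members and gene lists were chosen with earlier results of these data known. Named genes are the 10 members, the called genes and the 2 with the smallest adjusted p of each pathway list, and the 2 genes most like each member. Some genes of the pathway lists are not reported here.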

Additional observations from a re-analysis of the deposited data

Results flagged for a closer look

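The zone difference in hepatocyte nuclei differed between the diets, by the interaction term of the edgeR fit, for Osbpl3 (-3.27 on the log2 scale), Abcg5 (-0.97), Abcg8 (-0.79) and Scarb1 (0.71). In each, the pericentral over periportal difference seen in all 3 chow libraries was nearer to 0 in both MASH libraries.

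The diet difference differed between macrophage-gated and hepatocyte nuclei, by the interaction term, for Abcg1 (-1.55), Soat1 (-1.93) and Gramd1b (-2.43), being smaller in macrophage-gated nuclei. Those nuclei also held hepatocyte markers at 64.5% to 92.2% of the hepatocyte level. Hepatocyte nuclei in turn held macrophage markers at a sum of 56.5 to 81.8 CPM in chow and 237 to 382 in MASH. Abcg1, Soat1 and Gramd1b were higher in macrophage-gated than in hepatocyte nuclei of every library. What part RNA of other cells in either gate has in the difference was not tested. Without chow replicate 3 none of these 3 differences was called.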

How the results depend on the processing

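Of 682 values of single members under an alternative, 603 kept direction and side of the threshold, 23 kept direction but lost the call, 14 gained one and 42 changed sign. None of the 42 was called after the change, and the causes were not tested. In hepatocyte nuclei the diet test called 4 members, and 2 to 6 when each library was left out; in macrophage-gated nuclei it called 0, then 0 to 2 without single libraries, 1 with DESeq2, 1 without possible doublets, 1 in the purer gate and 3 with a replicate block. The zone test in MASH called 1, then 0 to 2 without single libraries, 0 with DESeq2 and 0 with 2 zone groups. The class interaction called 3, then 0 to 3. Members with non-overlapping shares in macrophage-gated nuclei numbered 3, where 22.0% of all genes did not overlap, and 3 to 6 without single libraries. Over all genes, the hepatocyte diet test called 2129 and from 218 (without MASH replicate 2) to 3300 (without chow replicate 1) when libraries were left out, 3605 with DESeq2, 4075 with Storey q-values, 3324 without a filter, 1419 with a stricter one and 858 without chow replicate 2. The macrophage-gated test called 126 genes, 392 with DESeq2, 202 with Storey q-values, 29 without a filter, 47 with 2 gate genes required, 281 with the replicate block, and 0 to 262 without single libraries (0 without chow replicate 2 or either MASH library). The zone test called 4148 in chow (2757 with DESeq2) and 1716 in MASH (1097 with DESeq2, 810 with 2 zone groups, 387 and 538 without MASH replicates 1 and 2), the zone interaction 824 (524, 234, 168 and 142 in the same order) and the class interaction 613 (374 with DESeq2, 128 without chow replicate 3, 124 and 315 without MASH replicates 1 and 2).

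The labels do not say whether replicate numbers pair libraries across the diets. Same-numbered libraries deviated in opposite directions (correlations -0.137 and -0.209 in hepatocyte nuclei). With 2 MASH libraries the deviations mirror each other, so these correlations cannot decide whether the numbers share a batch. With the replicate block 4 hepatocyte members were called, and Abcg1, Gramd1b and Osbpl3 in macrophage-gated nuclei; Lpcat3 was -0.025 and Abcg8 -0.029 in hepatocyte nuclei, and Abca1 0.21 in macrophage-gated nuclei.

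Sign changes without single libraries gave these ranges. Hepatocyte diet differences ran from -0.13 to 0.53 for Abcg8 and from -0.13 to 0.19 for Lpcat3. Macrophage-gated ones ran from -0.55 to 0.17 for Abca1, from -0.0038 to 0.40 for Lpcat3 and from -0.28 to 0.65 for Soat1. Zone differences ran from -0.056 to 0.0063 for Lpcat3 and from -0.80 to 0.22 for Soat1 in chow, and from -0.081 to 0.11 for Abcg5 in MASH, and the zone interaction from -0.60 to 0.45 for Soat1. Class interactions ran from -0.13 to 0.33 for Abcg5, from -0.69 to 0.0029 for Abcg8, from -0.0999 to 0.43 for Scarb1 and from -0.29 to 0.23 for Soat2. Lpcat3 in hepatocyte nuclei was -0.029 with DESeq2, -0.029 with relative log expression size factors, -0.013 without a filter and -0.027 with a gate on 3 other hepatocyte genes. With 2 zone groups Abca1 in MASH was -0.0089 and Gramd1b in chow 0.027. In macrophage-gated nuclei Soat1 was -0.25 with Clec4f or Cd5l nuclei only, -0.48 without possible doublets and -0.067 in the purer gate, where Abca1 was 0.20. The class interaction of Scarb1 was -0.0096 with DESeq2, -0.011 with relative log expression size factors and -0.022 without a filter. With 2 gate genes required, it was 0.92 for Abcg5, 0.30 for Abcg8 and 0.14 for Soat2, and in the purer gate 1.04, 1.34 and 0.19.

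The purer gate, chosen after seeing the data, left Abcg5, Abcg8 and Soat2 below the filter. With 3 against 2 libraries the exact test cannot go below 0.1, and chow macrophage sums, with 1 to 342 UMIs of a member, limit that comparison.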
